A study of Mus musculus with 6 samples.

Results

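Transcripts of 10 receptor tyrosine kinase genes associated with mesenchymal tumours were measured in a mouse sarcoma cell line with and without knockout of Setd1a. The genes were Pdgfra, Pdgfrb, Fgfr1, Fgfr2, Met, Axl, Igf1r, Egfr, Epha2 and Ddr2, chosen by name from 55471 gene identifiers in the count table, and all 10 passed the filter on low counts that left 13044 genes for testing. The cells were a mouse undifferentiated pleomorphic sarcoma (UPS) line, a soft-tissue tumour of mesenchymal character without a clear line of differentiation. The groups were 3 libraries titled Setd1a KO-Metastatic cell and tagged RNA_seq_1_1350 to RNA_seq_3_1350, and 3 libraries titled Control-Metastatic cell, of genotype WT and tagged RNA_seq_1_AAV2 to RNA_seq_3_AAV2; all 6 came from cells grown in DMEM with serum and antibiotics. The labels do not say what the tags mean, how Setd1a was deleted, whether the knockout was 1 clone, or whether libraries of a group came from separate cultures, so p-values cover the spread of these libraries alone, and that spread may be technical.

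Receptor tyrosine kinases span the cell membrane and add phosphate to tyrosines, on themselves and on bound proteins, when a ligand brings receptor molecules together. The phosphorylated receptor recruits adaptors that feed the RAS-ERK and PI3K-AKT pathways, while Sprouty proteins, dual-specificity phosphatases and CBL ubiquitin ligases damp the signal. Cells of mesenchymal origin typically carry PDGF and FGF receptors, AXL and the collagen receptor DDR2, and growth of sarcoma cells often depends on such receptors. SETD1A is a methyltransferase that places methyl groups on lysine 4 of histone H3, a mark of active promoters.

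Promoter sequence was available for 8 of the 10 genes in RefSeq's table for GRCm38.p6, as 300 bases from 250 before to 50 after the annotated start. That start need not be the outer end of the gene model given below. On the minus strand, the Ddr2 window ended at 170089194 and its gene model at 170110762. The Fgfr2 window ended at 130267058 and its gene model at 133123350. The 3 shown belong to the member with the most reads, Axl, to the member with a CpG-rich promoter and a TGANTCA match, Met, and to the member with the lowest fitted change, Pdgfra. They lie at chr7:25788684-25788983 on the minus strand, chr6:17463707-17464006 on the plus strand and chr5:75152001-75152300 on the plus strand. Capitals mark matches to GGGCGG, the GC box of SP-family factors, and to TGANTCA, the AP-1 motif, each searched on both strands; the motifs cannot overlap each other.
Axl: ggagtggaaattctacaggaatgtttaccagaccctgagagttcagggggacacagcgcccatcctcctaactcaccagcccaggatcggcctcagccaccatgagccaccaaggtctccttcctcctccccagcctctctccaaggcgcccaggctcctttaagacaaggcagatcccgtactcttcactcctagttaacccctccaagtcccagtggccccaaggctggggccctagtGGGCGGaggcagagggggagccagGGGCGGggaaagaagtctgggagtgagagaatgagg
Met: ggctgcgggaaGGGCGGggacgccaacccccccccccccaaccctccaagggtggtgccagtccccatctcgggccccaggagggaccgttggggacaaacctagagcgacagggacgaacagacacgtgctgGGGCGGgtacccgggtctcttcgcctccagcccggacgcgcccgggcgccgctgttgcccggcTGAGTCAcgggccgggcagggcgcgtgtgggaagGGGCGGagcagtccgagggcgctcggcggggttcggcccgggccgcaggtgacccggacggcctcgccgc
Pdgfra: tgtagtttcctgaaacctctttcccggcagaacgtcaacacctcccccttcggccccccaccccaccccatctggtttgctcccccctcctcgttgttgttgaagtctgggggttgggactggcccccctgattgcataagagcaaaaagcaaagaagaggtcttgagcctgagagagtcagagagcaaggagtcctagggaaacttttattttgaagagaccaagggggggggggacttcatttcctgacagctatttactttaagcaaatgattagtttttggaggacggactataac
The Met promoter held 34 CpG dinucleotides and 3 GC boxes, the Axl promoter 6 CpG and 2 GC boxes, and the Pdgfra promoter 5 CpG and no GC box, against a median of 7 CpG over all 32851 promoters in the table. A GC box occurred in 5 of the 8 member promoters and in 35.7% of all promoters. TGANTCA occurred in 1 of the 8, that of Met, and in 7.81% of all promoters. These matches describe the letters in the window and were not tested against the expression values.

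The 6 libraries held between 17749533 and 18272622 counts. Setd1a itself had 53.2, 68.7 and 56.3 CPM (counts relative to the library total after TMM scaling) in the Setd1a KO libraries, against 71.0, 75.3 and 73.5 CPM in the control libraries. The groups did not overlap, with a log2 change of −0.30 ± 0.12 (SE), and the exact two-sided permutation p was 0.1, the smallest that 3 against 3 allows. Other annotated genes share 52.3% of the exonic bases of Setd1a, and a deletion need not remove the transcript, so this check is weak. All 12 mesenchymal markers, among them Vim, were detected. Their summed level lay between 7949 and 9271 CPM in Setd1a KO libraries and between 9294 and 9601 CPM in control libraries. Of the 12, 11 had a log2 change below 0 and 1 above, with a median of −0.16, and none was called in either edgeR fit. With the replicate block 4 were lower and 1 higher at an unadjusted p under 0.05, beside 19.6% of all tested genes in either direction. The defining epithelial gene Cdh1 and the defining leukocyte gene Ptprc stayed below 0.3 CPM in every library, and the endothelial gene Pecam1 below 0.4 CPM. Of 12 epithelial markers 5 were tested, and their list summed to 70.0 to 116 CPM in Setd1a KO libraries and 62.7 to 104 CPM in control libraries, mostly Krt18. With the replicate block Krt19 and Dsp of that list were higher in Setd1a KO cells (log2 changes 0.84 and 0.81, edgeR quasi-likelihood adjusted p = 0.0327 and 0.0203), and none was without it. The block called 1.43% of all tested genes higher. Of 10 macrophage markers 3 were tested, summing with the rest to 21.2 to 29.4 CPM in Setd1a KO libraries and 21.9 to 23.7 CPM in control libraries, with Adgre1 at 0 in every library and none called in either fit. Of 10 endothelial markers 1 was tested, and their sum was 3.22 to 5.01 CPM in Setd1a KO libraries and 1.60 to 3.25 CPM in control libraries. A list of 15 interferon-inducible genes summed to 269, 968 and 872 CPM in the Setd1a KO libraries, against 365, 277 and 161 CPM in the control libraries, so that Setd1a KO replicate 1 lay within the control range. Of that list Oasl1, Ifih1 and Cxcl10 were called higher with the block and none without it, beside the same 1.43% of all tested genes with the block. Without the block all 15 had a log2 change above 0, with a median of 1.44. Of them 13 had an unadjusted p under 0.05 in edgeR's quasi-likelihood test, beside 10.0% of all tested genes in either direction. The part of these markers in the receptor values was not tested.

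None of the 10 receptor genes passed an adjusted p of 0.05 in either direction in edgeR's quasi-likelihood test with Benjamini-Hochberg adjustment over all 13044 genes. The test called 0.0% of all tested genes, with 1306 genes at an unadjusted p under 0.05. The same test with the replicate number as a block called 298 genes, or 2.28%, and again none of the 10 receptors; DESeq2 and limma-voom called none of the 10 either. At an unadjusted p under 0.05 the receptors had 0 genes without the block and 1, Fgfr1, with it, where the background shares were 10.0% and 19.6%. The largest change in size among the 10 was −0.23 and the median size was 0.07 on the log2 scale, beside a median size of 0.13 over all tested genes. The 95% interval of every one of the 10 changes lay within a 2-fold change in either direction. In bulk RNA, fewer cells expressing a receptor and less RNA per cell cannot be told apart.

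**Figure D1:**
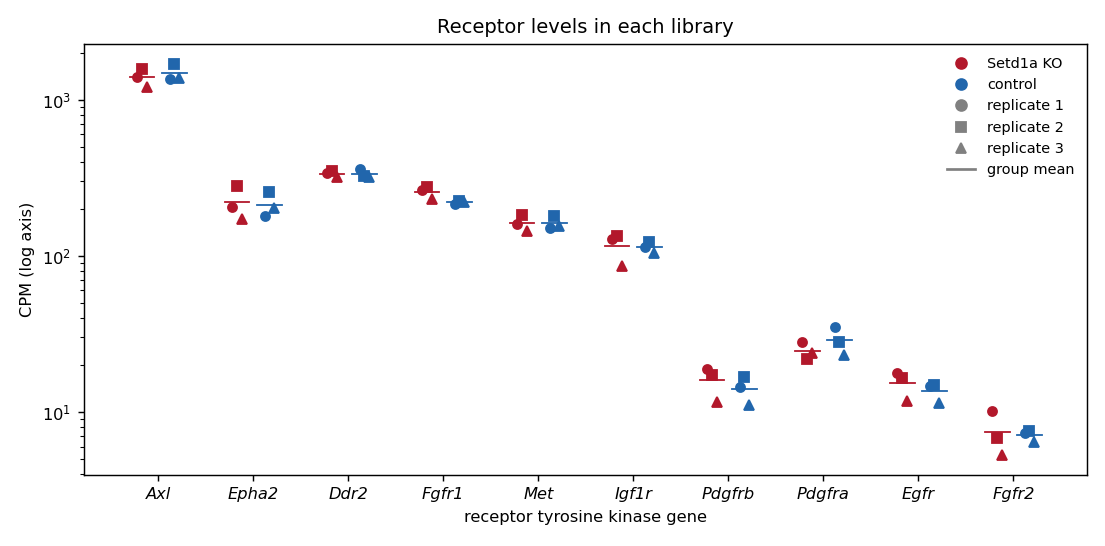
Level of each of the 10 receptor genes in CPM on a log axis, with 1 point per library whose shape gives the replicate number, the 3 Setd1a KO libraries left of the 3 control libraries, and a bar at each group mean. The groups overlap for 9 of the 10 genes, and the Fgfr1 values of the Setd1a KO libraries, 232 to 275 CPM, lie above the 215 to 224 CPM of the control libraries.

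The plot of levels by library sets the Setd1a KO and control libraries side by side for each gene. CPM is not corrected for gene length, so heights of different genes are not compared in it. Read support ran from 96 reads, for Fgfr2 in Setd1a KO replicate 3, to 30458 reads, for Axl in control replicate 2. Fgfr1 was the only member whose groups did not overlap, in a table where 7.49% of tested genes lay wholly higher and 7.77% wholly lower in the knockout.

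Among the growth factor receptors, Fgfr1 encodes the main receptor for fibroblast growth factors in mesenchymal cells and lies on chromosome 8 from 25513654 to 25575718, plus strand (GRCm38, as for all gene positions given here). It had 265, 275 and 232 CPM in the Setd1a KO libraries, against 215, 224 and 222 CPM in the control libraries. Each Setd1a KO library was above each control library; Setd1a KO replicate 3 was the closest to the control libraries. Mean levels were 257 ± 22.4 CPM in Setd1a KO cells and 220.4 ± 4.90 CPM in control cells (SD, n = 3 each). The log2 change was 0.22 ± 0.10 (SE), a 1.17-fold level with a 95% interval of 0.995 to 1.37, and edgeR's quasi-likelihood test gave an adjusted p of 0.515. With the replicate block the edgeR adjusted p was 0.165, and the smallest adjusted p of Fgfr1 over all alternatives was 0.0930, with the block and without replicate 3. Fgfr1 therefore did not pass the threshold in any fit.

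Fgfr2, an FGF receptor gene more typical of epithelium in its IIIb splice form, was the member with the fewest reads. Its gene model on chromosome 7 runs from 130162451 to 133123350 on the minus strand and shares 3.04% of its exonic bases with other genes, mainly Ctbp2. It had 10.1, 6.83 and 5.28 CPM in the Setd1a KO libraries, against 7.30, 7.59 and 6.39 CPM in the control libraries. The Setd1a KO values enclosed the control values, and the log2 change was 0.06 ± 0.23 (SE; edgeR quasi-likelihood adjusted p = 0.974).

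The PDGF receptors, which drive growth and migration of fibroblasts and pericytes, differed from each other in the sign of their fitted change. Pdgfra, on chromosome 5 from 75152292 to 75198215, had 28.0, 21.7 and 23.9 CPM in the Setd1a KO libraries, against 35.1, 28.1 and 23.1 CPM in the control libraries. The values overlapped, since control replicate 3 lay below Setd1a KO replicates 1 and 3. Its log2 change was −0.23 ± 0.17 (SE), a 0.851-fold level with a 95% interval of 0.657 to 1.10 (edgeR quasi-likelihood adjusted p = 0.741). Pdgfrb, on chromosome 18 from 61045150 to 61085061, had 18.9, 17.2 and 11.6 CPM in the Setd1a KO libraries, against 14.4, 16.7 and 11.04 CPM in the control libraries. It was higher in the Setd1a KO library of all 3 same-numbered pairs, but replicate 3 was low in both groups, and the ranges overlapped. The log2 change was 0.18 ± 0.21 (SE), with a 95% interval from 0.819- to 1.56-fold (edgeR quasi-likelihood adjusted p = 0.891). The difference between the 2 PDGF receptors was not tested.

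Egfr, the receptor for EGF, TGF-alpha, HB-EGF and epiregulin, lies on chromosome 11 from 16752203 to 16918158. It had 17.8, 16.4 and 11.7 CPM in the Setd1a KO libraries, against 14.7, 14.8 and 11.4 CPM in the control libraries. As for Pdgfrb, each Setd1a KO library was above the control library of its number while the group ranges overlapped, and the log2 change was 0.17 ± 0.18 (SE; edgeR quasi-likelihood adjusted p = 0.877). Being higher in all 3 pairs held for Pdgfrb, Fgfr1 and Egfr, 3 of the 10 members, and for 19.9% of all tested genes. No member was lower in all 3 pairs, as were 21.6% of tested genes.

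Igf1r, the receptor for insulin-like growth factors that sustains survival through PI3K-AKT, lies on chromosome 7 from 67952827 to 68233668. It had 127, 134 and 85.7 CPM in the Setd1a KO libraries, against 114, 123 and 104 CPM in the control libraries. The Setd1a KO libraries held both the highest and the lowest value, and the log2 change was 0.02 ± 0.16 (SE; edgeR quasi-likelihood adjusted p = 0.987). Met, the receptor for hepatocyte growth factor, lies on chromosome 6 from 17463800 to 17573980 and had 161, 183 and 145 CPM in the Setd1a KO libraries, against 149.8, 181 and 155 CPM in the control libraries. The libraries interleaved, and the Met level in Setd1a KO cells was 1.01-fold that of control cells with a 95% interval of 0.834 to 1.21 (edgeR quasi-likelihood adjusted p = 0.994).

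Axl, a TAM-family receptor that binds GAS6 and is linked to invasion and drug resistance in many tumours, lies on chromosome 7 from 25757273 to 25788705 on the minus strand. It had 1404, 1570.2 and 1200.3 CPM in the Setd1a KO libraries, against 1357, 1701 and 1370.02 CPM in the control libraries. Setd1a KO replicate 3 was the lowest and control replicate 2 the highest of the 6 libraries, with the others in between. The log2 change was −0.08 ± 0.14 (SE), with a 95% interval from 0.757- to 1.17-fold (edgeR quasi-likelihood adjusted p = 0.936).

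Epha2 encodes an ephrin-A receptor that can also signal without ligand in tumour cells and lies on chromosome 4 from 141301240 to 141329384. It had 206, 280.4 and 172 CPM in the Setd1a KO libraries, against 180.3, 255 and 202 CPM in the control libraries. Replicate 2 was the highest library in both groups, and the groups interleaved (log2 change 0.05 ± 0.18 SE; edgeR quasi-likelihood adjusted p = 0.974). Ddr2, a receptor activated by fibrillar collagen and typical of fibroblasts, lies on chromosome 1 from 169972307 to 170110762 on the minus strand. It had 339, 349.9 and 318 CPM in the Setd1a KO libraries, against 359, 326 and 318 CPM in the control libraries. The groups shared almost the same mean, 336 ± 16.0 CPM in Setd1a KO cells and 334 ± 21.9 CPM in control cells (SD, n = 3 each). The log2 change was 0.0066 ± 0.10 (SE), with a 95% interval from 0.857- to 1.18-fold (edgeR quasi-likelihood adjusted p = 0.994).

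**Figure D2:**
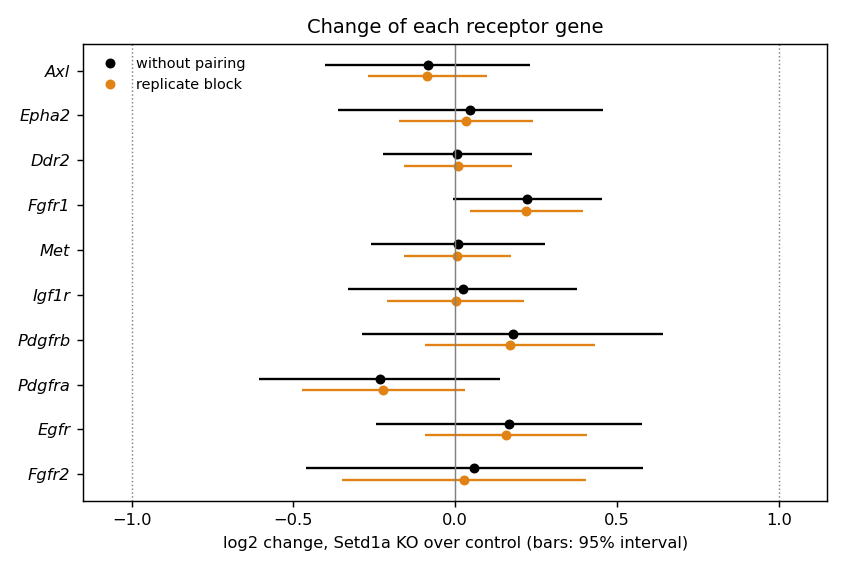
Log2 change of each receptor gene, Setd1a KO over control, with its 95% interval from edgeR's quasi-likelihood fit without pairing and with the replicate block; dotted lines mark a 2-fold change. Every interval stays inside the dotted lines, and without pairing each includes 0.

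The plot of changes places the 10 intervals on 1 scale. The narrowest SE was 0.10, for Ddr2 and Fgfr1, and the widest 0.23, for Fgfr2, which also had the fewest reads. With the replicate block the interval of Fgfr1 ran from 1.03- to 1.32-fold and no longer included no change, before adjustment over all genes. The adjusted p of the 10 members in edgeR's quasi-likelihood test with the block lay between 0.165 and 0.996.

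Levels of different genes were set side by side only per length, as TPM, counts divided by the summed exon length of each gene and scaled to the sum over all genes. Axl stood far above the rest with 903 ± 139 TPM in Setd1a KO cells and 946 ± 139 TPM in control cells (SD, n = 3 each), at rank 124 of all tested genes by mean level. Epha2 followed with 154 ± 42.0 TPM in Setd1a KO cells and 147 ± 28.3 TPM in control cells, and Ddr2 with 118 ± 8.05 TPM in Setd1a KO cells and 116 ± 9.14 TPM in control cells. Fgfr1 had 85.0 ± 9.07 TPM in Setd1a KO cells and 71.9 ± 2.03 TPM in control cells. These receptors and Met formed an upper group. Met had 69.2 ± 9.56 TPM in Setd1a KO cells and 67.9 ± 7.84 TPM in control cells, and Igf1r 22.5 ± 5.46 TPM in Setd1a KO cells and 21.9 ± 2.30 TPM in control cells. Pdgfrb, Pdgfra, Egfr and Fgfr2 formed the lower end, between 2.34 TPM for Fgfr2 and 9.49 TPM for Pdgfrb on average in Setd1a KO cells, and between 2.22 TPM for Fgfr2 and 9.28 TPM for Pdgfra in control cells. Neighbours in this order whose ranges over the 6 libraries overlapped were Epha2 and Ddr2, Fgfr1 and Met, Pdgfrb and Pdgfra, and Egfr and Fgfr2. With the longest annotated transcript as the length, 4 of the 10 kept their position. The last place then went to Egfr, with 3.71 TPM in Setd1a KO cells and 3.24 TPM in control cells, below Fgfr2 with 4.14 TPM in Setd1a KO cells and 3.89 TPM in control cells.

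**Figure D3:**
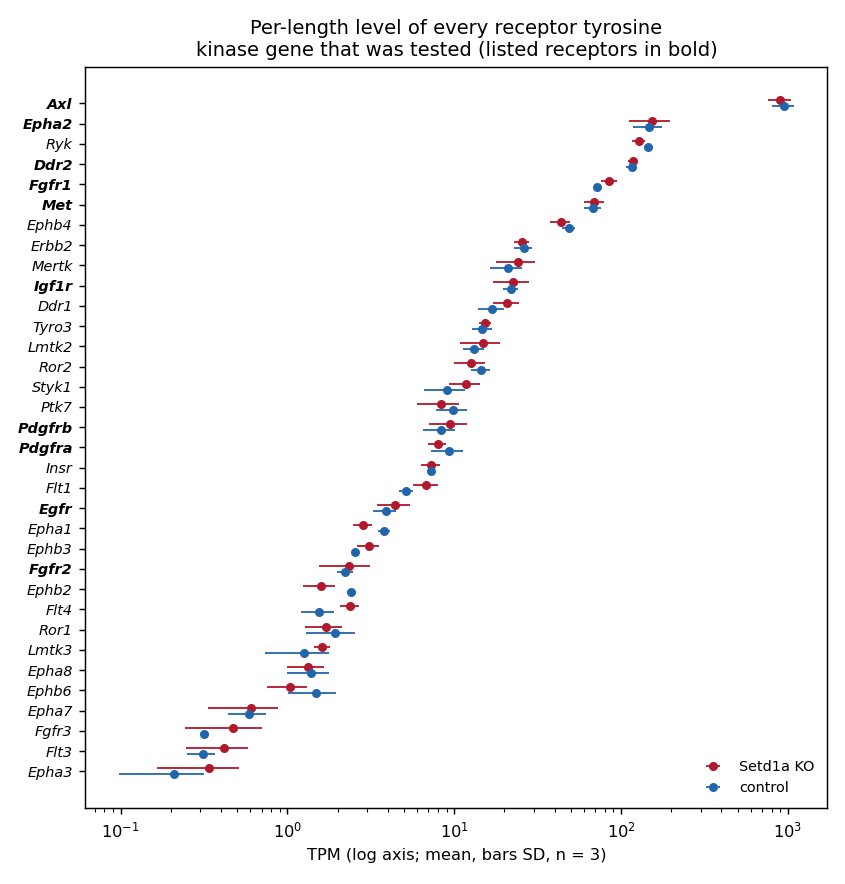
Mean level per length (TPM, log axis) of each tested receptor tyrosine kinase gene in Setd1a KO cells (red) and control cells (blue), with bars for the SD over 3 libraries each, in order of mean level and with the 10 listed receptors in bold. Axl lies above every other receptor gene, and Ryk, Ephb4, Erbb2 and Mertk are the non-members placed among the 10 highest.

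The plot of levels per length sets the 10 members among the other tested receptor genes. Among all 58 receptor tyrosine kinase genes examined, tested or not, the members took ranks 1, 2, 4, 5, 6, 10, 17, 18, 21 and 24. Ryk, a WNT co-receptor without kinase activity, held rank 3, and Ephb4, Erbb2 and Mertk held ranks 7, 8 and 9. The members made up 80.2% ± 1.32 of the summed TPM of the 58 genes in Setd1a KO cells and 79.8% ± 1.31 in control cells (SD, n = 3 each). Within the 10 members, Axl made up 65.8%, 65.4% and 65.7% of the summed TPM in the Setd1a KO libraries, against 66.9%, 69.1% and 67.3% in the control libraries. Each Setd1a KO share was below each control share; this share was computed after the values had been seen and is given without a test.

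The replicate numbers shared part of their order between the groups. The same number was highest in both groups for 6 of the 10 members and lowest in both for 5, close to the 54.7% and 50.8% of all tested genes. Setd1a KO replicate 3 was the lowest of the 3 Setd1a KO libraries for 9 of the 10 members, all but Pdgfra, which compares with 38.0% of all tested genes. Control replicate 3 was the lowest control library for 6 of the 10, against 31.6% of all tested genes. Replicate 2 was the highest in both groups for Fgfr1, Met, Axl, Igf1r and Epha2, a pattern held by 19.7% of tested genes. The median deviation of the members from their group mean was −0.26 on the log2 scale in Setd1a KO replicate 3 and −0.11 in control replicate 3. The members are long genes, and transcript length moved with the same libraries. Of the 4995 tested genes whose longest transcript had at least 3913 bases, the length found for Epha2, the shortest member, 51.4% were lowest in Setd1a KO replicate 3 among the Setd1a KO libraries, against 29.6% of the 8038 shorter genes. Median deviations in Setd1a KO replicate 3 were −0.06 for the longer and 0.06 for the shorter genes. The part of transcript length in the members' values was not tested.

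**Figure D4:**
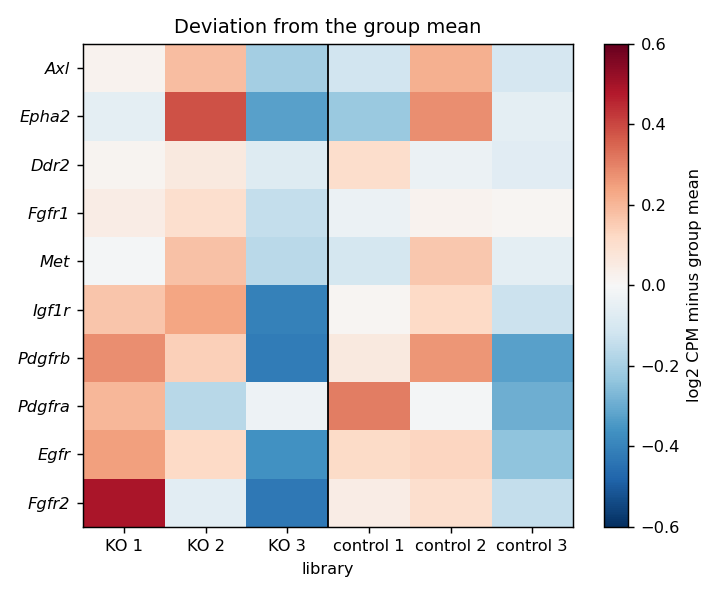
Heat map of the deviation of each receptor gene (rows) from its group mean in each library (columns, Setd1a KO left of control), on the log2 CPM scale, red above and blue below the mean. In the column of Setd1a KO replicate 3, 9 members have their lowest value among the Setd1a KO libraries; the median there is −0.26, and −0.11 in control replicate 3.

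The plot of deviations shows the replicate pattern gene by gene. Across the 6 libraries, Met and Epha2 moved most closely together (Pearson r = 0.99, n = 6 libraries), followed by Pdgfrb and Egfr (0.98) and Met and Axl (0.95), whereas Pdgfra and Fgfr1 had the lowest r, −0.49. These values are descriptions over libraries that share the replicate pattern above. Of 9894 genes with a mean of at least 5 CPM, those most like Fgfr1 over the 6 libraries were Arhgef28 (r = 0.999), Atp6v0d1 (0.993) and Sec24a (0.989), none of which passed the threshold in edgeR's quasi-likelihood test.

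Of 48 other receptor tyrosine kinases, 24 were tested and none passed in either edgeR fit over all libraries. At an unadjusted p under 0.05 there were 4 of the 24 without the block and 8 with it, where the shares of all tested genes were 10.0% and 19.6%. The groups did not overlap for 5, of which 2 lay higher and 3 lower, beside 7.49% and 7.77% of all tested genes. Whether the 24 differ from the 10 members was not tested. Those with the smallest p were Ephb2, with 6.13 ± 1.28 CPM in Setd1a KO cells and 9.48 ± 0.772 CPM in control cells, and the lymphatic VEGF receptor gene Flt4, with 6.02 ± 0.697 CPM in Setd1a KO cells and 3.96 ± 0.836 CPM in control cells (SD, n = 3 each). Their log2 changes were −0.63 and 0.60, with edgeR quasi-likelihood adjusted p of 0.320 and 0.380. Flt1 followed with a log2 change of 0.38, and Epha1 with −0.44. The median change of the 24 was 0.03, beside 0.00 over all tested genes.

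Of 44 genes listed as ligands of the 10 receptors or of their families, 25 passed the filter on low counts and were tested. None of these 25 passed the threshold in either fit over all libraries. Of the EGF receptor ligands, Hbegf was at 84.7 ± 13.96 CPM in Setd1a KO cells and 89.1 ± 4.85 CPM in control cells and Ereg was at 62.6 ± 7.71 CPM in Setd1a KO cells and 59.3 ± 10.1 CPM in control cells (SD, n = 3 each). Tgfa had 8.68 CPM in Setd1a KO cells and 6.04 CPM in control cells on average, and Areg 7.08 CPM in Setd1a KO cells and 9.58 CPM in control cells. Of the FGF genes, Fgf7 and Fgf10, ligands of the IIIb form of FGFR2, averaged 39.1 and 14.5 CPM in Setd1a KO cells, against 44.2 and 16.5 CPM in control cells. The PDGF genes Pdgfa, Pdgfc and Pdgfd averaged 26.0, 18.3 and 8.94 CPM in Setd1a KO cells, against 29.7, 17.1 and 6.21 CPM in control cells, and the log2 change of Pdgfd was 0.53. Gas6 and Pros1, which bind TAM receptors, averaged 0.791 and 5.37 CPM in Setd1a KO cells, against 0.650 and 4.64 CPM in control cells, with 78 reads of Gas6 in all 6 libraries together. Hgf likewise averaged 0.846 CPM in Setd1a KO cells and 1.04 CPM in control cells, and Igf1 and Igf2 had 3 and 0 reads in all 6 libraries together. These levels refer to transcripts made by the cells and not to ligand in the serum of the medium.

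Among ephrin-A genes, which encode the membrane-bound ligands of EPHA2, Efna4 had a log2 change of −0.68 and Efna5 of −0.53, with edgeR quasi-likelihood adjusted p of 0.257 and 0.441. Efna4 averaged 4.73 CPM in Setd1a KO cells and 7.60 CPM in control cells, and Efna5 8.84 CPM in Setd1a KO cells and 12.7 CPM in control cells. Neither gene's groups overlapped, where 7.77% of all tested genes lay wholly lower in the knockout. Other ephrin-A genes had changes of the opposite sign. Efna2 averaged 2.89 CPM in Setd1a KO cells and 2.10 CPM in control cells (log2 change 0.46). Its groups did not overlap, where 7.49% of all tested genes lay wholly higher. The log2 change of Efna3 was 0.44. Efna1 had a log2 change of −0.31, and the median of the 5 was −0.31. Of the collagen ligands of DDR2, Col3a1 averaged 231 ± 52.1 CPM in Setd1a KO cells and 296 ± 27.1 CPM in control cells (SD, n = 3 each), with overlapping groups and a log2 change of −0.36. Col2a1 had the largest change of the tested ligands, 1.01 on the log2 scale, at 1.77 CPM in Setd1a KO cells and 0.872 CPM in control cells on average (edgeR quasi-likelihood adjusted p = 0.393). Col1a2 averaged 186 ± 54.5 CPM in Setd1a KO cells and 212 ± 38.3 CPM in control cells, and Col1a1 35.6 ± 17.9 CPM in Setd1a KO cells and 37.4 ± 13.96 CPM in control cells; the groups overlapped for both. Igfbp4, which binds and sequesters insulin-like growth factors, had 151, 147 and 144 CPM in the Setd1a KO libraries, against 116, 121 and 123 CPM in the control libraries. Its groups did not overlap and its replicates were tight, but the edgeR quasi-likelihood adjusted p was 0.333 for a log2 change of 0.29. It was 1 of 5 tested IGF-binding genes, none of which passed.

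**Figure D5:**
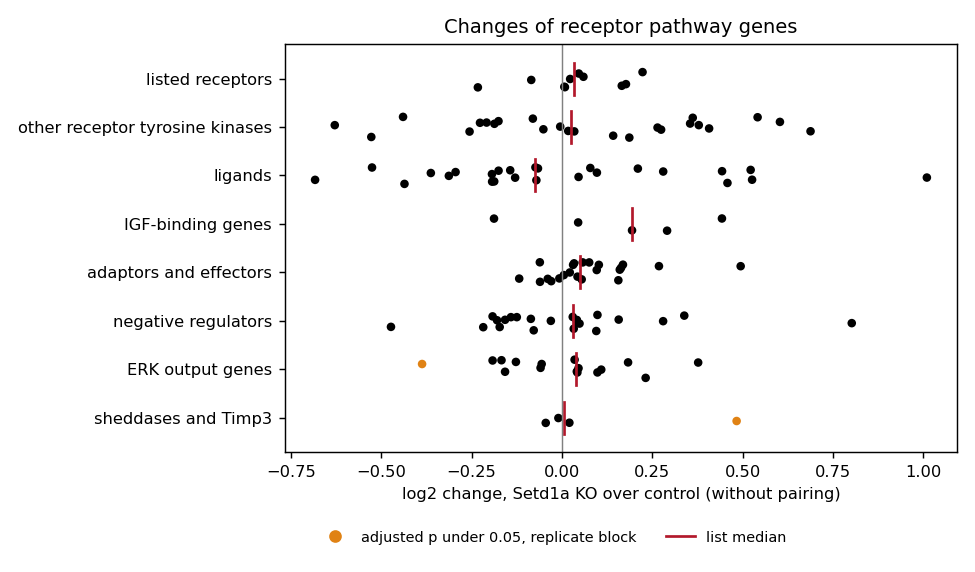
Log2 change, Setd1a KO over control, of each tested gene in the lists of the 10 receptors, other receptor tyrosine kinases, ligands, IGF-binding genes, adaptors, negative regulators, ERK output genes and sheddases. A bar gives the median of each list. Orange marks genes with an adjusted p under 0.05 with the replicate block. The median of the IGF-binding genes is 0.19, those of the other lists lie between −0.07 and 0.05, and only Etv5 and Timp3 are orange.

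The plot of pathway changes sets the receptors beside the genes that act with them. None of the 22 tested adaptors and effectors passed in either fit, and their median log2 change was 0.05. Among them, Irs2, an adaptor of the insulin and IGF receptors, averaged 28.8 ± 3.10 CPM in Setd1a KO cells and 23.9 ± 2.06 CPM in control cells (SD, n = 3 each), with a log2 change of 0.27 and overlapping groups. Irs1 had a log2 change of 0.49 with overlapping groups, and 30.9% of its exonic bases are shared with other genes. Jak1 and Crk each had a log2 change of 0.16, and their groups did not overlap, where 7.49% of all tested genes lay wholly higher. Of the 22 changes, 16 were above 0 and 6 below. Of 23 tested genes listed as negative regulators, also none passed. Sulf2, which encodes an extracellular sulfatase that trims heparan sulfate, had a log2 change of 0.80 and Spry1 of −0.47. Other genes share 24.4% of the exonic bases of Spry1. Whether Sulf2 damps receptor signalling in these cells was not tested. Of 16 genes whose transcripts ERK signalling raises, 1 fell with the replicate block and none without it, where the block called 0.851% of all tested genes lower. That gene was Etv5, an ETS transcription factor, with 72.1, 87.4 and 80.7 CPM in the Setd1a KO libraries, against 102, 101 and 112 CPM in the control libraries. Its groups did not overlap, and the log2 change was −0.39 ± 0.11 (SE) with an edgeR quasi-likelihood adjusted p of 0.291 without and 0.0471 with the block. The call was lost on leaving out any 1 of the 3 pairs, where the smallest adjusted p was 0.0570. Next by p were Ier3, with a log2 change of 0.38, and then Spry4 and Spry2, with −0.19 and −0.16, none past the threshold.

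Of the 3 proteases that cleave receptors, ligands or their precursors, Adam10, Adam17 and Furin, none passed, and their log2 changes lay between −0.04 and 0.02. Timp3, which encodes an inhibitor of ADAM10 and ADAM17 and other metalloproteinases, had 57.8, 54.7 and 31.6 CPM in the Setd1a KO libraries, against 36.2, 44.3 and 22.5 CPM in the control libraries. The groups overlapped while each Setd1a KO library was above the control library of its number, and Timp3 was higher with the replicate block (log2 change 0.49, edgeR quasi-likelihood adjusted p = 0.0422) but not without it (0.592). The block called 1.43% of all tested genes higher, the adjusted p was 0.0888 without replicate 3, and 21.3% of the exonic bases of Timp3 are shared with other genes, mainly Syn3. With the block and without replicate 1, Ephb2, Flt1, Efna4, Efna5, Col3a1 and Sulf2 also passed, with edgeR adjusted p between 0.000969 and 0.0319, in a fit that called 507 genes higher and 207 lower.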

How the data were processed

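RNA of 6 libraries was sequenced. The authors deposited raw read counts by Ensembl gene in 1 table, not normalized. The submitters' processing notes name mm10, STAR, featureCounts and DESeq. Versions, annotation release, strand setting and the treatment of multi-mapping reads were not given in the sources used here, so overlapping genes cannot be told apart. Groups and replicate numbers came from sample titles. Symbols, coordinates and exon lengths came from GENCODE M21 (GRCm38), which matched 55144 of 55471 identifiers; the other 327 held at most 0.0204% of a library's counts. Of 225 symbols written for the gene lists, 1 had no match.

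The counts went into edgeR 4.0.16 (R 4.3.3), with scaling by TMM, filtering on low counts by group (at most 0.127% of a library's counts removed), and the two-sided quasi-likelihood test over 13044 genes, adjusted by Benjamini-Hochberg and called at 0.05. For logged CPM the prior count was 2. The fit without pairing was the main comparison. Deviations from group means correlated at 0.15, 0.46 and 0.38 between libraries of the same number and at −0.45 to 0.05 between others. Deviations within a group cancel out, so the negative values between others are partly forced. No label states a pairing. The numbers were taken to pair the libraries from the data alone, and only outside the main fit. The common biological coefficient of variation was 0.143 without and 0.0960 with the block. Alternatives were the replicate block, DESeq2 size factors, 2 other low-count filters, DESeq2 1.42.0, limma-voom (limma 3.58.1), each library or pair left out, and another gene length. No libraries of a group agreed within sampling noise (chi-square per degree of freedom 21.6 to 40.0). The scripts were tested on simulated counts.

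The members and gene lists were chosen with earlier results of these data known. Named genes are Setd1a, the members, tested ligands, genes of each pathway list called in either fit or among its 4 with the smallest p, and the 3 genes most correlated with the member with the smallest p.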

Additional observations from a re-analysis of the deposited data

How the results depend on the processing

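No receptor gene was called under any of the 15 alternatives in edgeR, DESeq2 or limma-voom, where the smallest adjusted p was 0.0930. Of 150 receptor values in these alternatives, 122 kept their direction, and Pdgfra, Pdgfrb, Fgfr1 and Egfr kept it throughout. Values near 0 turned sign: Met was −0.0062 and Ddr2 −0.0082 without a low-count filter, Met −0.00083 and Ddr2 −0.0022 in DESeq2, and Igf1r −0.0011 in limma-voom (log2). Leaving out 1 library gave log2 changes of −0.22 to 0.25 for Fgfr2, −0.074 to 0.10 for Met, −0.17 to 0.036 for Axl, −0.087 to 0.20 for Igf1r, −0.16 to 0.21 for Epha2 and −0.029 to 0.060 for Ddr2; it gave −0.37 to −0.066 for Pdgfra, 0.030 to 0.36 for Pdgfrb, 0.18 to 0.29 for Fgfr1 and 0.045 to 0.33 for Egfr. With the block, sign turned without replicate 1 for Fgfr2 (−0.21), Met (−0.041), Igf1r (−0.076) and Epha2 (−0.048), without replicate 2 for Igf1r (−0.045), Epha2 (−0.0040) and Ddr2 (−0.025), and without replicate 3 for Ddr2 (−3.3e-05). Over all genes, where edgeR's quasi-likelihood test without pairing called 0 higher and 0 lower (1306 in all at an unadjusted p under 0.05), the replicate block called 187 higher and 111 lower, the fit without a low-count filter 62 and 12, and DESeq2 77 and 34; the cause was not tested. Leaving out 1 library gave 0 to 30 genes higher, the 30 without Setd1a KO replicate 1, and 0 to 1 lower. With the block, leaving out replicate 1, 2 or 3 gave 507, 140 and 0 genes higher and 207, 54 and 0 lower. With another gene length, 4 of the 10 receptors kept their position in the order of levels. Depth limits Fgfr2 most, at 96 to 183 reads per library, and genes near 1 CPM such as Gas6 and Hgf.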
